A study of Mus musculus with 8 samples.

Results

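The 9 mouse interferon-stimulated genes described here were Irf7, Ifit1, Ifit3, Oasl2, Mx1, Mx2, Rsad2, Isg15 and Xaf1. They were taken by symbol from the deposited gene table, which lists 31300 mouse genes among 52016 mouse and canine genes, and all 9 were found. Of the 9, 5 (Oasl2, Mx1, Mx2, Isg15 and Xaf1) reached a value of 10 in 2 libraries or more and were tested. Irf7, Ifit1, Ifit3 and Rsad2 were below that minimum, so only their values are given. Mx2 reached the minimum only through its PBS libraries and 1 OSCA-32 library. Mx1 and Isg15 also reached it only outside the OSCA-40 libraries.

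The libraries hold RNA of vesicles enriched from the serum of NCr nu/nu mice, a strain of athymic nude mice that lacks normal T cells and therefore accepts tumours of another species. There were 4 groups of 2 libraries. The OSCA-40 and OSCA-32 groups were pooled serum, drawn at necropsy at week 8, of mice that had received 100000 cells of the named canine osteosarcoma line in the tibia. The PBS group was pooled serum of mice given 10 µl of phosphate-buffered saline in the tibia, also drawn at necropsy at week 8, and the week 0 group was serum of all mice, pooled before any injection. All groups share the nude background, each tumour group rests on 1 cell line, and the age of the mice is not stated. The labels do not state whether both libraries of a group came from different animals or from 1 pool. The p-values are therefore about the spread among these 8 libraries, and that spread may be technical.

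Interferons are secreted proteins that warn cells of infection. They bind receptors at the cell surface, and type I interferon then acts through a complex of transcription factors, which enters the nucleus and switches on interferon-stimulated genes by binding a short promoter element built from repeats of GAAA. Many of the products block steps of virus growth, and some of these genes are also expressed at a low level without infection. RNA in serum vesicles comes from many cell types at once, so in these bulk samples fewer cells of a type and less RNA per cell cannot be told apart.

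The promoter element is shown first, because it is what several of these genes have in common in their sequence. The RefSeq promoter table for GRCm38.p6 holds 300 bases around the annotated start of 7 of the 9 genes (all but Mx1 and Mx2). In it the core of the interferon-stimulated response element, taken as 2 GAAA runs with 2 bases of any kind between them and searched on both strands with overlapping matches allowed, was present in 4 of 7 promoters (57.1%), those of Ifit1, Ifit3, Rsad2 and Isg15. It was present in 1131 of 32851 promoters in the whole table (3.44%). The next shares count genes, with a match in any promoter of the gene. They were 215 of 5224 tested mouse genes (4.12%) and 31 of 67 other interferon-stimulated genes (46.3%). The stretches below run 5′ to 3′ on the strand of the gene, with the core in capitals. A core on the opposite strand reads as 2 TTTC runs.
Ifit1: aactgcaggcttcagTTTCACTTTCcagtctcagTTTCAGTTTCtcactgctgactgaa
Ifit3: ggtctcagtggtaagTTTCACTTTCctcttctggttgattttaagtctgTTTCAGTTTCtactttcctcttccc
Rsad2: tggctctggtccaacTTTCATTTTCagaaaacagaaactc
Isg15: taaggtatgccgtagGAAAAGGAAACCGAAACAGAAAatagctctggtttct

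The Ifit1 stretch is chr19:34640770-34640828 on the plus strand, with matches that begin 104 and 85 bases before the start site. The Ifit3 stretch is chr19:34583358-34583431 on the plus strand, with matches 156 and 122 bases before the start site. The Rsad2 stretch is chr12:26456548-26456587 on the minus strand, with its match 120 bases before the start site. The Isg15 stretch is chr4:156200860-156200911 on the minus strand and holds 3 overlapping matches, at 78, 72 and 66 bases before the start site. Isg15 alone among the 4 carried the core on its own coding strand. The core was not found in the windows of Irf7, Oasl2 and Xaf1, which says only that these letters are not there. A match is a description of the sequence and not evidence of binding.

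**Figure D1:**
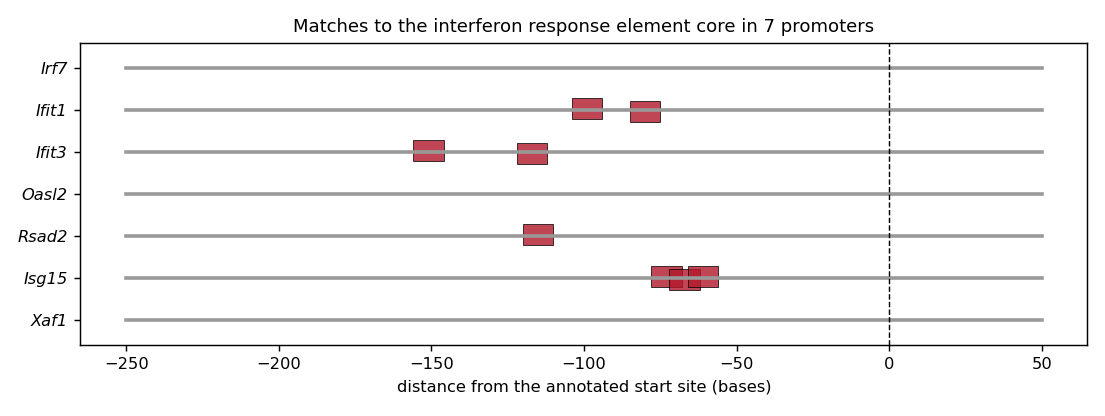
Positions of the GAAA-repeat core in the promoters of 7 of the 9 genes. The x axis is the distance from the annotated start site in bases (the dashed line marks the start), each row is a gene, and each mark is a match; Ifit1 and Ifit3 have 2 matches, Rsad2 has 1 and Isg15 has 3 that overlap.

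The deposited values are whole numbers that sum to between 977106 and 989183 in every library, mouse and canine genes together. In their near-constant sum they behave like TPM, a length-adjusted share, and levels of different genes are compared here on that assumption. The sum does not show that values were adjusted for length, so the order of different genes is uncertain. Canine genes took 68.4% and 70.7% of the total in OSCA-40 libraries and 44.7% and 43.3% in OSCA-32 libraries, against 14.7% to 17.4% in the PBS and week 0 libraries. Mice of the PBS and week 0 groups had received no canine cells, so the assignment of values to species is not exact. Whether mouse values in the tumour libraries, such as those of Xaf1 and Ifit1, hold canine reads was not tested. The median protein-coding mouse gene was listed at 2 and 1 in OSCA-40 libraries, at 3 in both OSCA-32 libraries and at 5 in each of the PBS and week 0 libraries. A mouse gene that keeps its place among mouse genes therefore has a lower deposited value in the tumour groups, and each value is also given after scaling on the bulk of genes. After scaling, a deposited value of 1 was worth 2.94 and 3.06 scaled units in the 2 OSCA-40 libraries, so small values there are coarse. Sequencing depth is unknown, and no counting interval can be given. Of the vesicle tetraspanins, Cd9 was listed at 26 to 234 over the 8 libraries, while Cd81 (3 to 11) and Cd63 (3 to 7) were near the median gene.

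Irf7 is the transcription factor that amplifies the type I interferon response. The Irf7 gene lies at chr7:141262706-141266481 (minus strand, GRCm38). Irf7 was listed at 1 and 1 in OSCA-40 libraries, at 0 and 5 in OSCA-32 libraries, at 8 and 8 in PBS libraries and at 5 and 5 at week 0. Both OSCA-40 libraries were below both PBS libraries as deposited, and they stayed below them after scaling, at 2.94 and 3.06 against 7.69 and 7.59. The OSCA-32 libraries were split, with 1 at 0 and the other, at 7.05 after scaling, close to the PBS libraries. The Irf7 value in OSCA-40 libraries is the smallest above 0 that the table can hold. Irf7 exceeded 17.2% and 17.5% of protein-coding mouse genes in OSCA-40 libraries, against 64.9% and 64.3% in PBS libraries and 49.5% and 48.8% at week 0. Genes tied with Irf7 are not counted as exceeded, and many were tied with it at 1. Mx2, at 2 in OSCA-40 libraries, exceeded 49.9% and 50.5% there. Exons of Irf7 share 45 bases with Phrf1 on the opposite strand, and the use of strand in assigning reads is not given in the sources used here.

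Ifit1 and Ifit3 encode tetratricopeptide-repeat proteins, of which Ifit1 binds RNA whose cap lacks the methylation of the host's own messages. Both lie on chromosome 19, Ifit1 at chr19:34640871-34650009 and Ifit3 at chr19:34583531-34588731, each on the plus strand. Ifit1 was listed at 4 and 4 in OSCA-40 libraries, at 3 and 5 in OSCA-32 libraries, at 5 and 4 in PBS libraries and at 4 and 3 at week 0. As deposited Ifit1 thus stood at about the same level in every group, while most mouse genes had lower values in the tumour groups. After scaling, Ifit1 was at 11.7 and 12.3 in OSCA-40 libraries, 4.35 and 7.05 in OSCA-32 libraries, 4.81 and 3.8 in PBS libraries and 4 and 2.95 at week 0. The scaled OSCA-40 values lay above those of the other 6 libraries. In rank, Ifit1 exceeded 75.1% and 75.9% of protein-coding mouse genes in OSCA-40 libraries, against 46.2% and 35.5% in PBS libraries.

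Ifit3 was listed at 2 and 1 in OSCA-40 libraries, at 2 and 2 in OSCA-32 libraries, at 2 and 5 in PBS libraries and at 3 and 4 at week 0. The OSCA-40 and PBS libraries of Ifit3 overlapped on both scales. Its transcript is 97.8% identical over 1700 bases to that of the neighbouring copy Ifit3b, so the split of reads between the 2 genes is uncertain. Ifit3b itself was listed at 4 and 4 in OSCA-40 libraries and at 9 and 9 in PBS libraries. The sum of Ifit3 and Ifit3b, at 6 and 5 in OSCA-40 libraries against 11 and 14 in PBS libraries, had a log2 fold change of 0.44 ± 0.27 (SE) after scaling (limma, adjusted p = 0.410).

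Oasl2 belongs to the oligoadenylate synthetase family, whose enzymes make the small messenger that activates RNase L. The gene lies at chr5:114896936-114912234 on the plus strand. Oasl2 was listed at 15 and 14 in OSCA-40 libraries, at 18 and 21 in OSCA-32 libraries, at 27 and 33 in PBS libraries and at 29 and 28 at week 0. The order as deposited was OSCA-40, OSCA-32 and then the PBS and week 0 libraries, which overlapped each other. After scaling, Oasl2 was at 44.0 and 42.9 in OSCA-40 libraries, 26.1 and 29.6 in OSCA-32 libraries, 26.0 and 31.3 in PBS libraries and 29.0 and 27.5 at week 0. The scaled OSCA-40 values were the highest of the 8 and the other 3 groups overlapped. Its log2 fold change in OSCA-40 against PBS was 0.59 ± 0.16 (95% interval 0.22 to 0.96, limma, adjusted p = 0.0790), which did not pass the threshold of 0.05.

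Mx1 and Mx2 encode dynamin-like GTPases that trap viral components. In mice Mx1 protein acts in the nucleus, mainly on influenza viruses, and Mx2 protein in the cytoplasm. Mx1 lies at chr16:97447035-97462907 on the minus strand and Mx2 at chr16:97535308-97560900 on the plus strand. Many laboratory strains carry defective Mx alleles: GENCODE M21 lists Mx1 as protein-coding and Mx2 as a polymorphic pseudogene, and RefSeq lists both as transcribed pseudogenes. The alleles of the mice used here were not analysed. The transcripts of Mx1 and Mx2 share 924 bases at 94.7% identity, so reads from that stretch may be split between them.

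Mx1 was listed at 5 and 7 in OSCA-40 libraries, at 14 and 13 in OSCA-32 libraries, at 21 and 20 in PBS libraries and at 21 and 20 at week 0. As deposited Mx1 followed the fall of mouse genes as a whole, with no overlap between OSCA-40, OSCA-32 and the PBS libraries. After scaling it was at 14.7 and 21.4 in OSCA-40 libraries, 20.3 and 18.3 in OSCA-32 libraries, 20.2 and 18.98 in PBS libraries and 21.0 and 19.7 at week 0. After scaling all 4 groups overlapped in Mx1, with the 2 OSCA-40 libraries the lowest and the highest of the 8. The log2 fold change of Mx1 in OSCA-40 against PBS was -0.13 ± 0.22 (95% interval -0.66 to 0.39, limma, adjusted p = 0.784).

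Mx2 was listed at 2 and 2 in OSCA-40 libraries, at 7 and 11 in OSCA-32 libraries, at 17 and 12 in PBS libraries and at 9 and 7 at week 0. After scaling, Mx2 was at 5.87 and 6.12 in OSCA-40 libraries, 10.1 and 15.5 in OSCA-32 libraries, 16.4 and 11.4 in PBS libraries and 9 and 6.88 at week 0. Mx2 was thus lowest in OSCA-40 libraries on both scales, close to the week 0 libraries after scaling, and OSCA-32 overlapped PBS. The log2 fold change in OSCA-40 against PBS was -1.07 ± 0.34 (95% interval -1.88 to -0.26), and it did not pass the threshold (limma, adjusted p = 0.135). Mx2 reached the filter minimum only through PBS and OSCA-32 libraries, so the filter favours a low OSCA-40 value. The estimate and its interval are therefore not read as a fall. In rank, Mx2 exceeded 49.9% and 50.5% of protein-coding mouse genes in OSCA-40 libraries, against 85.7% and 77.1% in PBS libraries.

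Rsad2 encodes viperin, an enzyme that makes a chain-terminating nucleotide. The gene lies at chr12:26442746-26456452 on the minus strand. Rsad2 was listed at 0 and 1 in OSCA-40 libraries, at 5 and 2 in OSCA-32 libraries, at 6 and 4 in PBS libraries and at 6 and 4 at week 0. As deposited the OSCA-40 libraries were the lowest. After scaling Rsad2 was at 0 and 3.06 in OSCA-40 libraries, 7.25 and 2.82 in OSCA-32 libraries and 5.77 and 3.8 in PBS libraries, so OSCA-40 overlapped OSCA-32 and its nearest library lay within 1 scaled unit of PBS. Rsad2 was one of 2 genes listed at 0 in any library, the other being Irf7 in 1 OSCA-32 library.

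Isg15 encodes a ubiquitin-like protein that is attached to other proteins and is also secreted. The gene lies at chr4:156199424-156200818 on the minus strand. Isg15 was listed at 7 and 7 in OSCA-40 libraries, at 15 and 21 in OSCA-32 libraries, at 29 and 22 in PBS libraries and at 32 and 38 at week 0. As deposited the groups were fully ordered, OSCA-40 lowest and week 0 highest. After scaling, Isg15 was at 20.6 and 21.4 in OSCA-40 libraries, 21.7 and 29.6 in OSCA-32 libraries, 27.9 and 20.9 in PBS libraries and 32.0 and 37.4 at week 0. OSCA-40 and PBS libraries then overlapped, as did OSCA-32 and PBS libraries, and week 0 remained the highest. The log2 fold change in OSCA-40 against PBS was -0.19 ± 0.22 (95% interval -0.71 to 0.33, limma, adjusted p = 0.668).

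Xaf1 encodes a factor described, mainly in human cells, as an antagonist of the cell death inhibitor XIAP. The gene lies at chr11:72301629-72313733 on the plus strand. Xaf1 was listed at 17 and 18 in OSCA-40 libraries, at 24 and 14 in OSCA-32 libraries, at 24 and 23 in PBS libraries and at 20 and 17 at week 0. As deposited its OSCA-40 libraries were just below the PBS libraries and overlapped the week 0 libraries. After scaling, Xaf1 was at 49.9 and 55.1 in OSCA-40 libraries, 34.8 and 19.7 in OSCA-32 libraries, 23.1 and 21.8 in PBS libraries and 20.0 and 16.7 at week 0. The scaled OSCA-40 libraries were the highest of the 8, and the 2 OSCA-32 libraries stood on either side of the PBS libraries. Stretches of 200 to 214 bases of Xaf1 transcripts are 90% to 94.1% identical to transcripts of 12 other protein-coding mouse genes. Part of its value could therefore come from reads those genes share. Canine transcripts were not compared.

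**Figure D2:**
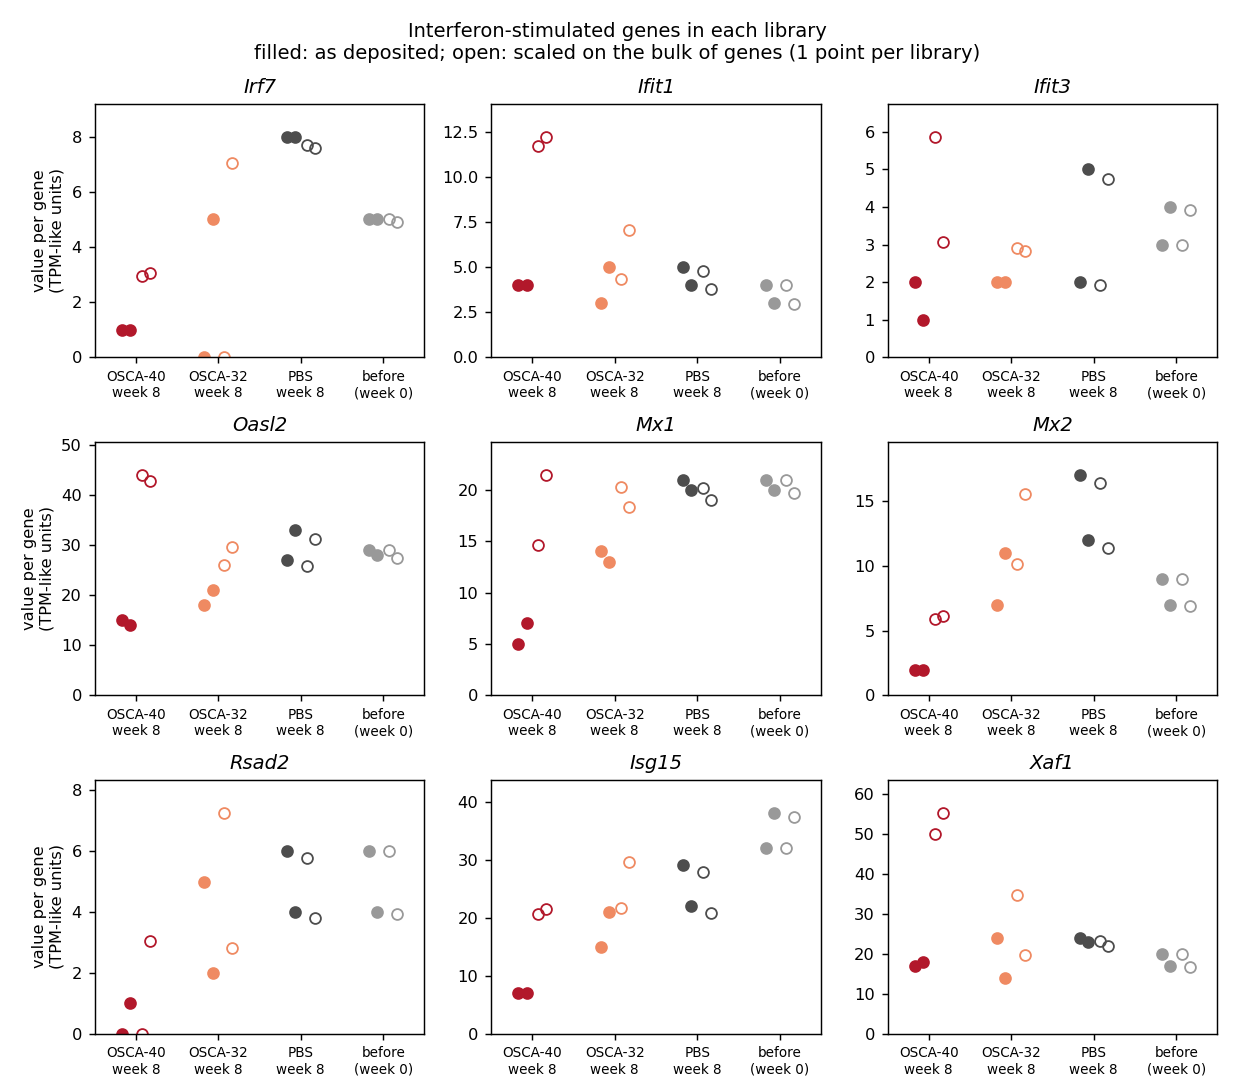
Values of the 9 genes in each of the 8 libraries, as deposited and after scaling. Each panel is a gene, each library has a filled point (as deposited) and an open point (after scaling), the groups run OSCA-40, OSCA-32, PBS and week 0 from left to right, and the y axis is the value in TPM-like units; Xaf1 and Oasl2 are highest in OSCA-40 after scaling (49.9 and 55.1 for Xaf1), while Mx2 is lowest there (5.87 and 6.12).

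The first comparison asked how serum RNA of mice carrying OSCA-40 differed from that of mice given PBS. Of the 5 genes tested, Xaf1 rose, with a log2 fold change of 1.19 ± 0.26 after scaling (95% interval 0.57 to 1.81, limma, adjusted p = 0.0429), and the other 4 did not pass the threshold. That is 1 of 5, where 5.32% of all tested mouse genes passed in either direction. As deposited, both OSCA-40 libraries were below both PBS libraries for all 5 genes, as they were for 92.5% of tested mouse genes. After scaling, the libraries did not overlap for 2 genes that were higher in OSCA-40, Oasl2 and Xaf1, where 23.4% of mouse genes were placed so, and for 1 that was lower, Mx2, where 25.6% were. The median log2 fold change of the 5 was -0.13 after scaling, beside -0.04 over all tested mouse genes, and -1.63 as deposited, beside -1.51. Mx1, Mx2 and Isg15 reached the filter minimum only outside the OSCA-40 libraries, which favours low OSCA-40 values. Neither the median nor the placing of Mx2 is therefore read as a fall.

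The Xaf1 result depended on the scaling, the filter, the variance model and single libraries. With library totals alone the log2 fold change was -0.42 (adjusted p = 0.143), and 4 genes (Oasl2, Mx1, Mx2 and Isg15) fell, in a fit in which 6539 mouse genes fell and 15 rose, against 181 and 226 after scaling. After scaling the fold change stayed between 0.95 and 1.26. It no longer passed with a minimum of 5 in place of 10 (adjusted p = 0.0794), with no filter (0.122) or with no variance trend (0.0982). Nor did it pass without the first or second OSCA-40 library (adjusted p = 0.0935 and 0.121), the first or second PBS library (0.168 and 0.205) or the first or second week 0 library (0.0805 and 0.0796), and over all 18 alternatives, of which 8 kept the call, the adjusted p ran from 0.0128 to 0.205.

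In mice carrying OSCA-32, none of the 5 tested genes passed against PBS at adjusted p = 0.05, where 0.549% of tested mouse genes did. None had an unadjusted p under 0.05 either, a threshold for which no share over all genes is given. The log2 fold changes were 0.22 ± 0.26 for Xaf1 (adjusted p = 0.860), 0.07 ± 0.22 for Isg15 (0.957), -0.02 ± 0.22 for Mx1 (0.985), -0.04 ± 0.16 for Oasl2 (0.971) and -0.11 ± 0.34 for Mx2 (0.956), all by limma. As deposited, 4 of 5 genes (all but Xaf1) were lower in both OSCA-32 libraries than in both PBS libraries, beside 64.8% of mouse genes. After scaling the libraries of all 5 overlapped, and no share over all mouse genes is given for that placing. With library totals alone, Oasl2 fell, among 1264 mouse genes that fell and 22 that rose, against 13 and 29 after scaling. The intervals were wide: that of Xaf1 ran from -0.41 to 0.84 and that of Mx2 from -0.92 to 0.70, so changes of that size were not excluded.

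OSCA-40 and OSCA-32 were then compared directly. None of the 5 genes passed by limma, where 1.72% of tested mouse genes did. An unadjusted p under 0.05 was reached by 3 (Xaf1, Oasl2 and Mx2), as it was by many other genes. By p, Oasl2 ranked 380, Xaf1 470 and Mx2 898 among the 7872 tested genes. Xaf1 had a log2 fold change of 0.97 ± 0.26 (95% interval 0.35 to 1.59, adjusted p = 0.128) and Oasl2 of 0.63 ± 0.16 (0.26 to 1.00, adjusted p = 0.106). Mx2 had one of -0.96 ± 0.34 (-1.76 to -0.15, adjusted p = 0.233), Isg15 of -0.26 ± 0.22 (adjusted p = 0.617) and Mx1 of -0.11 ± 0.22 (adjusted p = 0.846). For these 3 genes the filter favours low OSCA-40 values here too. A difference between the tumour lines in these genes was therefore not shown, the call of Xaf1 against PBS included. With library totals alone, Mx1, Mx2 and Isg15 fell, among 4516 mouse genes that fell and 14 that rose, against 74 and 58 after scaling. This comparison and the first share the OSCA-40 libraries.

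The change in mice without tumours was read from PBS at week 8 against week 0. None of the 5 genes passed by limma (adjusted p = 1 for each), where 0.144% of tested mouse genes did, and none had an unadjusted p under 0.05. Isg15 had the lowest log2 fold change, -0.50 ± 0.22 (95% interval -1.02 to 0.02), and Mx2 the highest, 0.72 ± 0.34 (-0.08 to 1.53). Xaf1 was at 0.28 ± 0.26, Oasl2 at 0.01 ± 0.16 and Mx1 at -0.05 ± 0.22. Both PBS libraries are also the comparators of the tumour groups, so a PBS level of Mx2 above that at week 0 enters its fold change in OSCA-40 as well.

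**Figure D3:**
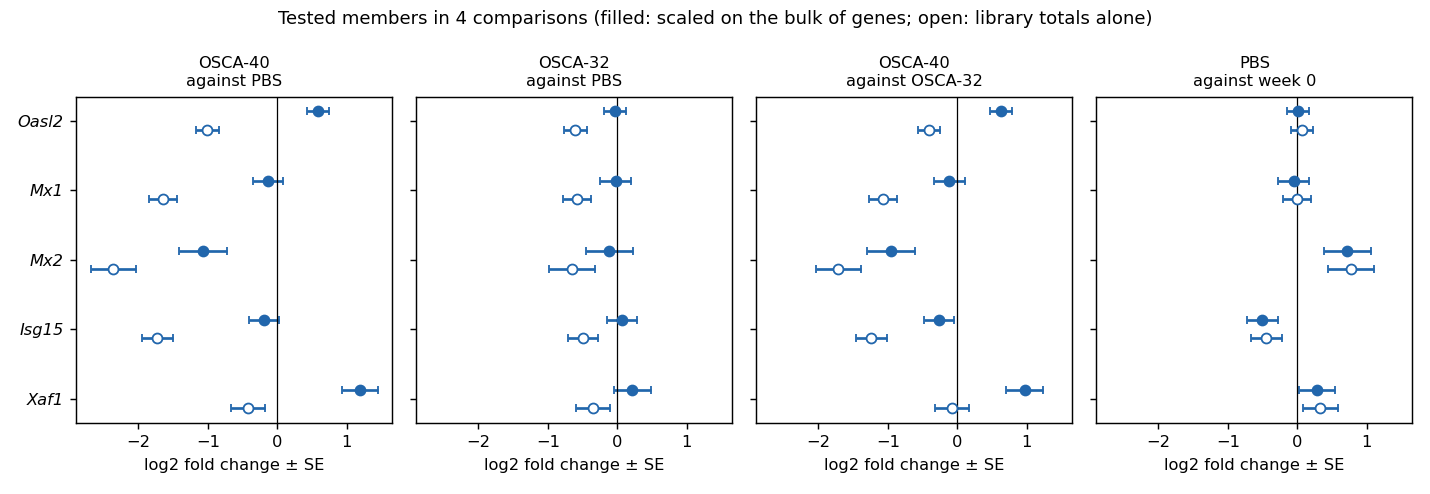
Log2 fold changes of the 5 tested genes in the 4 comparisons, 1 panel each. Filled points are limma estimates after scaling on the bulk of genes, open points those with library totals alone, and bars are 1 SE on either side; in OSCA-40 against PBS, Xaf1 stands at 1.19 after scaling and at -0.42 with library totals alone.

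As a sum the 9 genes hid these opposite placings. Their deposited values added to 53 and 55 in OSCA-40 libraries, 88 and 94 in OSCA-32 libraries, 139 and 131 in PBS libraries and 129 and 126 at week 0. As parts per 1000000 of all mouse values the sums were 169.8 and 190.0 in OSCA-40 libraries, 161.8 and 168.5 in OSCA-32 libraries, 166.7 and 158.2 in PBS libraries and 157.1 and 155.9 at week 0. As such shares the OSCA-40 sums were the highest, by a small margin for 1 of the 2 libraries. Within PBS libraries the order of deposited levels was Oasl2, Isg15, Xaf1 and Mx1, then Mx2, Irf7, Rsad2, Ifit1 and Ifit3. Neighbours in the first 3 places overlapped, as did those in the last 3. Xaf1 (24 and 23) stood above Mx1, while Mx1 (21 and 20) stood above Mx2 (17 and 12), and Mx2 above Irf7 (8 and 8). In OSCA-40 libraries Xaf1 (17 and 18) came first, ahead of Oasl2 (15 and 14).

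Ranks among protein-coding mouse genes need no scaling and gave a similar picture. They count only genes with a lower value and leave out ties, so ranks of genes at small values, such as Irf7, Rsad2 and Ifit3, are coarse. Oasl2 exceeded between 91.8% and 95.2% of genes in every library, Isg15 between 87.8% and 94.7%, Xaf1 between 86.2% and 96.3% and Mx1 between 81.0% and 89.6%. Xaf1 exceeded 95.8% and 96.3% of genes in OSCA-40 libraries, against 91.0% and 90.1% in PBS libraries. Mx2 ranged more widely, from 49.9% in 1 OSCA-40 library to 85.7% in 1 PBS library, and in OSCA-40 libraries it stood below Ifit1. Rsad2 ran from 0% in 1 OSCA-40 library to 62.6% in 1 OSCA-32 library, and Ifit3 from 9.75% in 1 PBS library to 49.9% in 1 OSCA-40 library.

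**Figure D4:**
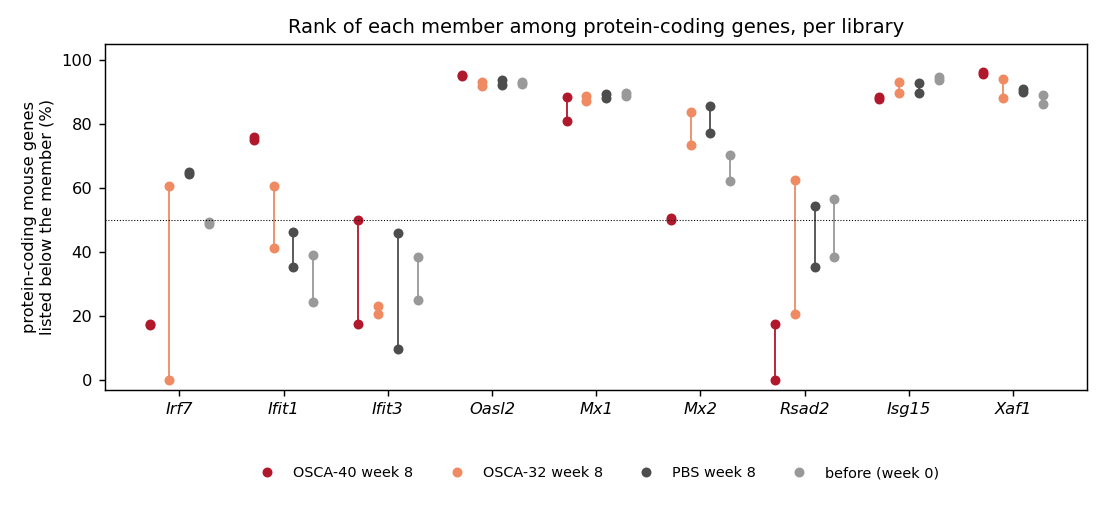
Rank of each of the 9 genes among protein-coding mouse genes in each library. The y axis is the percentage of protein-coding mouse genes with a lower deposited value, each point is 1 library, lines join the 2 libraries of a group, the dotted line marks 50%, and groups run OSCA-40, OSCA-32, PBS and week 0; Ifit1 stands higher in OSCA-40 (75.1% and 75.9%) than in PBS (46.2% and 35.5%), and Mx2 and Irf7 stand lower.

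The rest of the interferon pathway was read from 5 lists. Among ligands, 1 of 20 genes was tested, Ifna16, listed at 2 and 1 in OSCA-40 libraries against 5 and 10 in PBS libraries, and it did not pass (limma, adjusted p = 0.679). Ifna16 reached the minimum of 10 only through week 0 and PBS libraries. Among receptors and signalling proteins, 11 of 12 symbols were listed and 7 tested, and none passed in either direction in OSCA-40 against PBS, with 1 (Ifnar1) at an unadjusted p under 0.05. The type I receptor chain Ifnar1 was listed at 6 and 8 in OSCA-40 libraries against 13 and 16 in PBS libraries, a scaled log2 fold change of 0.56 ± 0.24 (limma, adjusted p = 0.238). The type II receptor chain Ifngr1 had a scaled log2 fold change of 0.56 ± 0.40 (adjusted p = 0.489). The median of the 7 was 0.10, beside -0.04 over all tested mouse genes.

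Of the sensors of viral nucleic acid and their adaptors, 12 of 14 symbols were listed and 3 tested, and none passed (1, Dhx58, at an unadjusted p under 0.05). Their median log2 fold change was -0.92, beside -0.04 over all tested mouse genes. Ddx58, which encodes the RNA sensor RIG-I, was listed at 76 and 74 in OSCA-40 libraries against 225 and 258 in PBS libraries, a scaled log2 fold change of -0.03 ± 0.09 (limma, adjusted p = 0.888). Dhx58, which encodes the related protein LGP2, was listed at 3 and 2 in OSCA-40 libraries against 15 and 16 in PBS libraries, a scaled log2 fold change of -0.92 ± 0.32 (adjusted p = 0.161). The endosomal receptor Tlr7 was at 1 and 0 in OSCA-40 libraries and at 3 and 9 in PBS libraries (adjusted p = 0.444). Of 6 negative regulators 2 were tested, with a median of -0.36, beside the same -0.04. The phosphatase Ptpn6 was at 2 and 5 in OSCA-40 libraries against 6 and 18 in PBS libraries (adjusted p = 0.968), and the RNA-editing enzyme Adar was at 5 and 2 against 18 and 15 (adjusted p = 0.420). Dhx58, Tlr7, Ptpn6 and Adar reached the minimum of 10 only outside the OSCA-40 libraries. The filter thus favours low OSCA-40 values among these genes, and the medians of both lists are not read as a fall.

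The list of other interferon-stimulated genes held 86, of which 30 were tested. In OSCA-40 against PBS 1 of the 30 rose and none fell, where 2.95% of tested mouse genes rose, and the median log2 fold change of the 30 was 0.13, with 18 above 0. The gene that rose was Ube2l6, whose product is the conjugating enzyme for ISG15, listed at 49 and 46 in OSCA-40 libraries against 116 and 119 in PBS libraries. Its scaled log2 fold change was 0.34 ± 0.08 (limma, adjusted p = 0.0490). It passed in the same direction in 2 of 18 alternatives and in the opposite direction in 1, library totals alone, at -1.31, and leaving out any 1 of the 8 libraries ended the call (adjusted p from 0.0558 to 0.240, within a range of 2.70e-05 to 0.459 over all alternatives). Gbp5, an interferon-induced GTPase, was listed at 61 and 53 against 191 and 187 (scaled log2 fold change -0.08 ± 0.10, adjusted p = 0.704), and the nuclear body protein gene Sp110 had a scaled log2 fold change of 0.01 ± 0.10. Among relatives of the 9 genes, Oasl1 had one of 0.15 ± 0.25, Ifit3b of 0.44 ± 0.29 and Ifit1bl2 of 0.29 ± 0.13, and none of the 3 passed. No gene of the 5 lists passed in OSCA-32 against PBS, in OSCA-40 against OSCA-32 or in PBS against week 0.

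**Figure D5:**
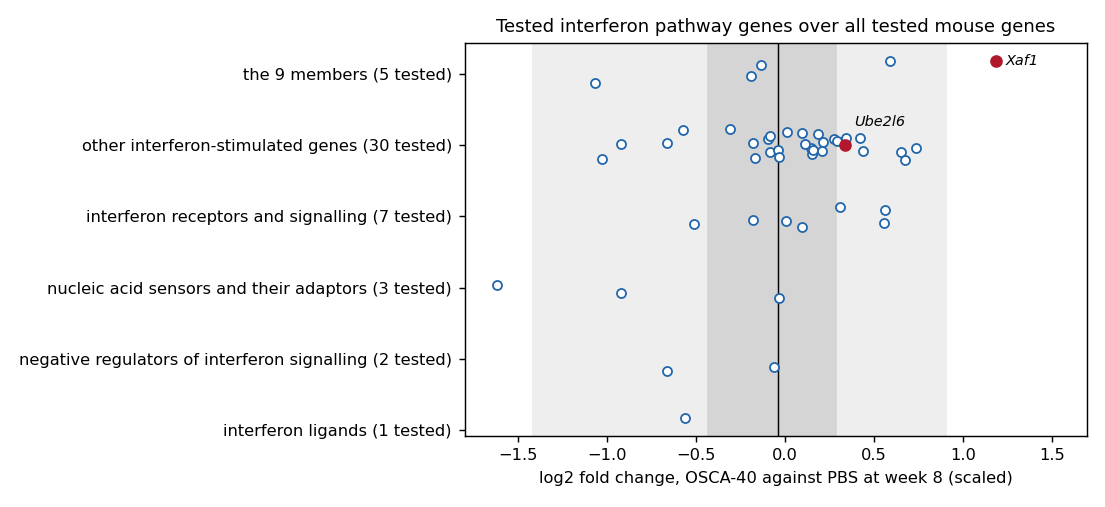
Scaled log2 fold changes of tested interferon pathway genes in OSCA-40 against PBS at week 8. Each circle is a gene, filled where the adjusted p was under 0.05 (Xaf1 and Ube2l6), the black line is the median of all tested mouse genes (-0.04), and the dark and light bands hold their middle 50% and middle 90%.

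Other RNA of the serum also differed in OSCA-40 libraries, after the same scaling. The summed scaled level of 13 platelet and megakaryocyte markers was 333.8 to 375.8 in OSCA-40 libraries and 145.2 to 159.4 in OSCA-32 libraries, against 97.8 to 122.1 in PBS libraries and 88.5 to 103.0 at week 0. Of the 3 tested, 2 rose in OSCA-40 against PBS, where 2.95% of tested mouse genes did: Pf4 (log2 fold change 2.78 ± 0.26) and Ppbp (1.62 ± 0.28). The sum of 11 erythroid markers was 783.8 to 906.5 in OSCA-40 libraries, 407.3 to 421.5 in OSCA-32 libraries, 333.6 to 361.6 in PBS libraries and 477.0 to 507.2 at week 0, and of 7 tested 1 rose in OSCA-40 against PBS, Hba-a2, by 1.71 ± 0.07. With library totals alone Hba-a2 was at 0.05 (adjusted p = 0.569), and it fell in PBS against week 0 (-0.76 ± 0.07, limma, adjusted p = 0.0177), so a low PBS level enters its rise. The sum of 12 hepatocyte markers was 173.2 to 202.1 in OSCA-40 libraries and 123.2 to 124.1 in OSCA-32 libraries, against 67.3 to 74.0 in PBS libraries and 77.0 to 78.6 at week 0, and 2 of 3 tested rose in OSCA-40 against PBS, Alb (1.74 ± 0.32) and Trf (0.78 ± 0.17). The sum of 12 endothelial markers was 238.9 to 243.7 in OSCA-40 libraries and 205.8 to 241.1 in OSCA-32 libraries, against 193.6 to 208.6 in PBS libraries and 200 to 229 at week 0. Of the 7 tested, Pecam1 rose by 1.29 ± 0.15 in OSCA-40 against PBS (-0.33 with library totals alone), while only 2 were above 0 and the median log2 fold change was -0.33. In each OSCA-40 library 1 marker of each of the platelet, erythroid and hepatocyte lists was at 0. Pf4 gave 85 and 69 of the deposited platelet sums of 128 and 109 in OSCA-40 libraries, and 39 and 30 of 127 and 103 in PBS libraries. Hba-a2 gave 194 and 196 of the deposited erythroid sums of 267 and 296 in OSCA-40 libraries, and 184 and 189 of 347 and 381 in PBS libraries. The platelet and erythroid sums in OSCA-40 libraries were thus mostly 1 gene each. The summed platelet, erythroid and hepatocyte levels were higher in OSCA-40 than in PBS libraries, as Xaf1 was after scaling, and their part in its result was not tested.

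Markers of other blood cells, some of them strong producers of interferon or responders to it, were summed in the same way. The sum of 12 plasmacytoid and other dendritic cell markers was 168.4 to 173.2 in OSCA-40 libraries, 146.6 to 163.8 in OSCA-32 libraries, 153.8 to 156.7 in PBS libraries and 158.0 to 158.3 at week 0. The OSCA-40 sums were above those of the other 3 groups, and their part in the Xaf1 result was not tested. A single gene, Tcf4, gave 23 and 28 of a deposited 59 and 55 in OSCA-40 libraries. In PBS libraries Tcf4 gave 66 and 86 of 163 and 162, so the order of the dendritic sums leans on 1 gene. For 12 monocyte and macrophage markers the sum was 88.1 to 91.9 in OSCA-40 libraries and 71.9 to 87.0 in OSCA-32 libraries, against 79.7 to 84.6 in PBS libraries and 72.7 to 88.0 at week 0, with 3 of the 12 at 0 in each OSCA-40 library. The 12 neutrophil markers summed to 179.1 to 192.9 in OSCA-40 libraries and 207.3 to 208.6 in OSCA-32 libraries, against 204.8 to 230.6 in PBS libraries and 203.0 to 233.0 at week 0, so that the OSCA-40 sums were the lowest. Most of the neutrophil sum was Cxcr2, at 41 and 35 of a deposited 61 and 63 in OSCA-40 libraries. In PBS libraries Cxcr2 was at 139 and 158 of 213 and 243, so this order too leans on 1 gene. The sums of 12 T and NK cell markers (134.7 to 182.0 in OSCA-40 libraries, 143.3 to 158.5 in PBS libraries) and of 12 B and plasma cell markers (79.3 to 101.1 in OSCA-40 libraries, 88.3 to 91.3 in PBS libraries) overlapped. In OSCA-40 against PBS, where 5.32% of tested mouse genes passed, none passed by limma of 7 dendritic, 3 monocyte, 4 neutrophil, 4 T and NK and 3 B cell markers tested. At an unadjusted p under 0.05, 1 neutrophil and 1 B cell marker did.

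The protein-coding mouse genes whose scaled levels followed those of Xaf1 most closely over the 8 libraries were Fyco1, B2m and Slco2a1, of 6500 compared. Their Pearson r with Xaf1 on log2(scaled value + 1) was 0.978, 0.967 and 0.963, a description over libraries that share their groups and scaling. Fyco1, an adaptor for the transport of autophagosomes, was listed at 15 and 16 in OSCA-40 libraries, 18 and 9 in OSCA-32 libraries, 11 and 13 in PBS libraries and 14 and 9 at week 0. B2m, the light chain of class I histocompatibility molecules, was listed at 16 and 15 in OSCA-40 libraries, 15 and 10 in OSCA-32 libraries, 10 and 11 in PBS libraries and 9 and 8 at week 0. As deposited both were higher in OSCA-40 than in PBS libraries, where Xaf1 was lower (17 and 18 against 24 and 23), and both had 1 high and 1 lower OSCA-32 library, as Xaf1 did. Slco2a1, a prostaglandin transporter, was listed at 21 and 20 in OSCA-40 libraries, 41 and 37 in OSCA-32 libraries, 53 and 55 in PBS libraries and 52 and 49 at week 0.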

How the data were processed

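ExoQuick was used to enrich vesicles from serum, a SeraMir kit to extract the RNA and a SMARTer pico-input kit to make stranded libraries, per the labels' protocols. Per the submitters' processing notes, kallisto 0.43.0 was run with FastQC 0.11.5 and Trimmomatic 0.33.0 on builds GRCm38.p5 (mouse) and CanFam3.1 (dog). Index and strand setting: not given in the sources used here. As deposited, values are whole numbers treated as a score: every library sums to nearly the same total, so they are not raw counts, depth is unknown and no count model was run.

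Libraries were scaled to the first week 0 library by an unweighted trimmed mean of log ratios (30% of ratios and 5% of levels trimmed). limma 3.58.1 in R 4.3.3 was fitted to log2(scaled value + 1) with a variance trend over 8 libraries (4 residual degrees of freedom). Benjamini-Hochberg adjustment was over 7872 genes (7655 mouse, 217 canine) that reached 10 in 2 libraries or more. A run on simulated data used independent normal noise, so it does not show that these libraries meet the model. Fold changes on this scale understate changes of low genes. The share of all genes with an unadjusted p under 0.05 is not given, so counts at that threshold have no background. Symbols and gene coordinates came from GENCODE M21 on GRCm38. Mouse transcripts were compared with each other by blastn 2.17.0 (at least 90% identity over 200 bases).

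The 9 genes and all lists were chosen with earlier results of these data known. Named genes were the 9, list genes that passed, the 3 tested genes with the highest mean in each interferon list, the leading gene of each marker list where its list moved, close copies, and the 3 genes most correlated with a member that passed; the vesicle tetraspanins were added after values were seen, and some genes the rule names are not reported here. Alternatives covered scaling, filter, pseudocount, variance model, libraries in the fit, replicate block and each library left out.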

Additional observations from a re-analysis of the deposited data

How the results depend on the processing

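The genes called (mouse and canine, limma) were 538 in OSCA-40 against PBS, 85 in OSCA-32 against PBS, 200 in OSCA-40 against OSCA-32 and 15 in PBS against week 0. In that order of comparisons, library totals alone gave 6726, 1353, 4638 and 12, no filter gave 2431, 168, 1810 and 2, and no variance trend gave 301, 75, 110 and 5. With only the 4 libraries compared the counts were 387, 42, 150 and 4, and a minimum of 5 gave 8 in PBS against week 0. Leaving out 1 library gave 268 to 524, 38 to 84, 63 to 182 and 2 to 10. The causes of these shifts were not tested.

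With library totals alone these log2 fold changes turned round: in OSCA-40 against PBS, Xaf1 -0.42, Oasl2 -1.01, Ifnar1 -0.97, Pecam1 -0.33, Sp110 -1.64 and Ube2l6 -1.31; in OSCA-32 against PBS, Xaf1 -0.35 and Isg15 -0.49; in OSCA-40 against OSCA-32, Xaf1 -0.074 and Oasl2 -0.41; and in PBS against week 0, Mx1 0.0012. Without a filter Sp110 (-0.23) turned in OSCA-40 against PBS, Mx1 (0.0038) in OSCA-32 against PBS and Oasl2 (-0.0206) in PBS against week 0. A minimum of 5 turned Sp110 (-0.0215) and Oasl2 in PBS against week 0 (-0.0080), and median-of-ratios scaling turned Sp110 (-0.0003).

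Leaving out 1 library spanned 0 in OSCA-32 against PBS for Xaf1 (-0.18 to 0.60), Isg15 (-0.15 to 0.28), Mx1 (-0.0904 to 0.0441), Mx2 (-0.40 to 0.17) and Oasl2 (-0.17 to 0.0886). It did so in OSCA-40 against PBS for Mx1 (-0.39 to 0.13), Ddx58 (-0.14 to 0.0376) and Sp110 (-0.0638 to 0.0596), in OSCA-40 against OSCA-32 for Mx1 (-0.37 to 0.15) and in PBS against week 0 for Oasl2 (-0.11 to 0.15).

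Same-numbered libraries did not deviate together (correlations -0.057 to 0.006), so the numbers were not taken as pairs. With the replicate block, 451, 60, 135 and 5 genes were called in the same order, and Xaf1 still passed in OSCA-40 against PBS (1.19, adjusted p = 0.0486).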

Other observations

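Summing Ifit1 with its relatives Ifit1bl1 and Ifit1bl2 gave 21 and 21 in OSCA-40 libraries, 30 and 33 in OSCA-32 libraries and 46 and 45 in PBS libraries. After scaling the sum passed in OSCA-40 against PBS, with a log2 fold change of 0.52 ± 0.11 (limma, adjusted p = 0.0396), and did not pass in OSCA-40 against OSCA-32 (0.48 ± 0.11, adjusted p = 0.0941) or in OSCA-32 against PBS (0.05 ± 0.11, adjusted p = 0.939). In OSCA-40 against PBS 2.95% of tested mouse genes rose. Ifit1bl2 gave most of the sum, at 14 and 15 in OSCA-40 libraries against 37 and 37 in PBS libraries, and did not pass alone (limma, adjusted p = 0.269). No other mouse gene reached 90% identity over 200 bases with Ifit1, so that search gave no ground for this sum. Shorter shared stretches and canine transcripts were not examined. The sum was fitted under the main setting only, and whether its call holds under the alternatives was not tested.
The T cell receptor subunit gene Cd3d was listed at 41 and 32 in OSCA-40 libraries, 64 and 75 in OSCA-32 libraries, 97 and 90 in PBS libraries and 83 and 90 at week 0. After scaling it did not pass in OSCA-40 against PBS (log2 fold change 0.28 ± 0.13, limma, adjusted p = 0.282). In PBS libraries Cd3d gave most of the 149 and 167 summed over 12 T and NK cell markers, whose medians were 3.5 and 6. The median protein-coding mouse gene was at 5 there. These mice are athymic, and the source of the Cd3d values was not tested.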
